A study of Mus musculus with 6 samples.

Results

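Krüppel-like factors are transcription factors with zinc fingers near their C terminus that bind GC-rich and CACCC elements, as the related Sp factors do, and that differ in the regions that recruit activators or repressors. The 10 examined here, *Klf2*, *Klf3*, *Klf4*, *Klf5*, *Klf6*, *Klf9*, *Klf10*, *Klf11*, *Klf13* and *Klf15*, were set by a list of names, with no threshold on their values, and are 10 of 14790 genes tested on the array. In the uterus the family is best known for *Klf9*, whose protein is a partner of the progesterone receptor, for *Klf5*, which the uterine epithelium needs for implantation, and for *Klf15*, which opposes oestrogen-driven epithelial division. Whether their mRNA differs when the uterine epithelium has lost *Sox17*, the gene of an HMG box transcription factor, is the question of the comparison.

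RNA of whole uteri was taken at gestation day (GD) 3.5 of natural pregnancy, with the embryos removed, from 3 Sox17f/f and 3 Sox17ed/ed female mice that had been mated at 8 to 10 weeks of age, and was hybridized to Agilent arrays read in 1 colour, with 1 sample to an array. Both genotypes carried 2 floxed *Sox17* alleles. The Sox17ed/ed mice (LtfiCre/+ Sox17 f/f) also carried an iCre recombinase driven by *Ltf*, which acts in the uterine epithelium from puberty, and the Sox17f/f mice did not. Expression is given as the quantile normalized log2 signal of a probe, differences are Sox17ed/ed minus Sox17f/f, and a gene was called when limma gave an unadjusted p under 0.01 and a fold of at least 1.4. The adjusted p is that of Benjamini and Hochberg over all 14790 genes. The *Sox17* probe read 12.21, 12.07 and 12.22 on the Sox17f/f arrays and 9.75, 9.59 and 9.81 on the Sox17ed/ed arrays, a log2 fold change of -2.45 (SE 0.09, limma adjusted p = 2.6e-05), so that each array followed its label. The tissue was the whole organ, in which fewer cells of a type and less RNA per cell cannot be told apart. Markers of epithelium, stroma, smooth muscle and endothelium were all above background. The 6 arrays lay on 1 slide with each genotype in its own line, so that position on the slide and genotype cannot be told apart.

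Of the 10 members, 8 had an entry in the RefSeq promoter table (GRCm38.p6), and the 250 bases before their start sites held 59.6% to 78.4% G and C, beside a median of 52.4% over the 32851 promoters of the table. A GC box (GGGCGG, either strand), the element that the family itself binds, was found in 7 of the 8, beside 32.7% of all promoters. The CACCC box (CACCC, either strand) stood in 5 of the 8, beside 52.0% of all, and shared bases with a GC box in *Klf3* and *Klf13*. The E box CACGTG stood in 4 of the 8, namely *Klf4*, *Klf6*, *Klf11* and *Klf15*, beside 6.02% of all, whereas the hormone response half-site TGTTCT (either strand) stood in 0 of the 8, beside 16.1% of all. The core of the SOX motif (ACAAT, either strand) was found in *Klf9* only, with 2 copies, beside 27.7% of all promoters. These are matches of letters and not binding sites. The upstream sequences of *Klf4* and *Klf2* are shown because both genes read lower on every Sox17ed/ed array, and that of *Klf9* because it was the exception in both motifs, with 0 GC boxes and the SOX core. Capitals mark the GC boxes in *Klf4* (4 copies, of which the first 2 share a base; chr4:55532476-55532725, minus strand) and in *Klf2* (2 copies; chr8:72318812-72319061, plus strand), and the SOX cores in *Klf9* (chr19:23140976-23141225, plus strand).
Klf4: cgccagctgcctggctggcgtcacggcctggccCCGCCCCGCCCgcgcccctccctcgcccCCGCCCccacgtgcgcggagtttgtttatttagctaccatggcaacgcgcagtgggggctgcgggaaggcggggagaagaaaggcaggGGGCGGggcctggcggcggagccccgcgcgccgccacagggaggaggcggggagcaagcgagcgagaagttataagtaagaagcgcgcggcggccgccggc
Klf2: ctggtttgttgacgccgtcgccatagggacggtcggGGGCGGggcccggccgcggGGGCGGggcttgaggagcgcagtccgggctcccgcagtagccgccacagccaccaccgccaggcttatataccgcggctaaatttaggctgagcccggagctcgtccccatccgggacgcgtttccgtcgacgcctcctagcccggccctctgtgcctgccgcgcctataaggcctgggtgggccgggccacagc
Klf9: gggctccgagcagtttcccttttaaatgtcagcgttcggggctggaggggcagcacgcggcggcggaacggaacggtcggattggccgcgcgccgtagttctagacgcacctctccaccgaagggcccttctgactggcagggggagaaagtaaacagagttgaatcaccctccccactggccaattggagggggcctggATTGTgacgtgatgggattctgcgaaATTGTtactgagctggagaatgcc

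Each of the 10 members had 1 probe, and all 10 were well above background on all 6 arrays. Of the 10, 1 was called, *Klf4*, which was lower in Sox17ed/ed, where 12.5% of all genes tested were called, 6.48% as lower and 6.02% as higher. At an adjusted p under 0.05 with no fold threshold 2 members passed, *Klf4* and *Klf10*, beside 19.0% of all genes. The arrays of the genotypes did not overlap for 3 members, *Klf2*, *Klf4* and *Klf10*, beside 40.5% of all genes. Each share of the members was close to or below that of all genes. The mean was lower in Sox17ed/ed for 7 members and higher for 3, beside 50.3% of all genes with a lower mean, and the median log2 fold change was -0.085 for the members and -0.0019 for all genes. The median size of the difference regardless of direction was 0.19 on the log2 scale for the members and 0.17 for all genes.

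**Figure D1:**
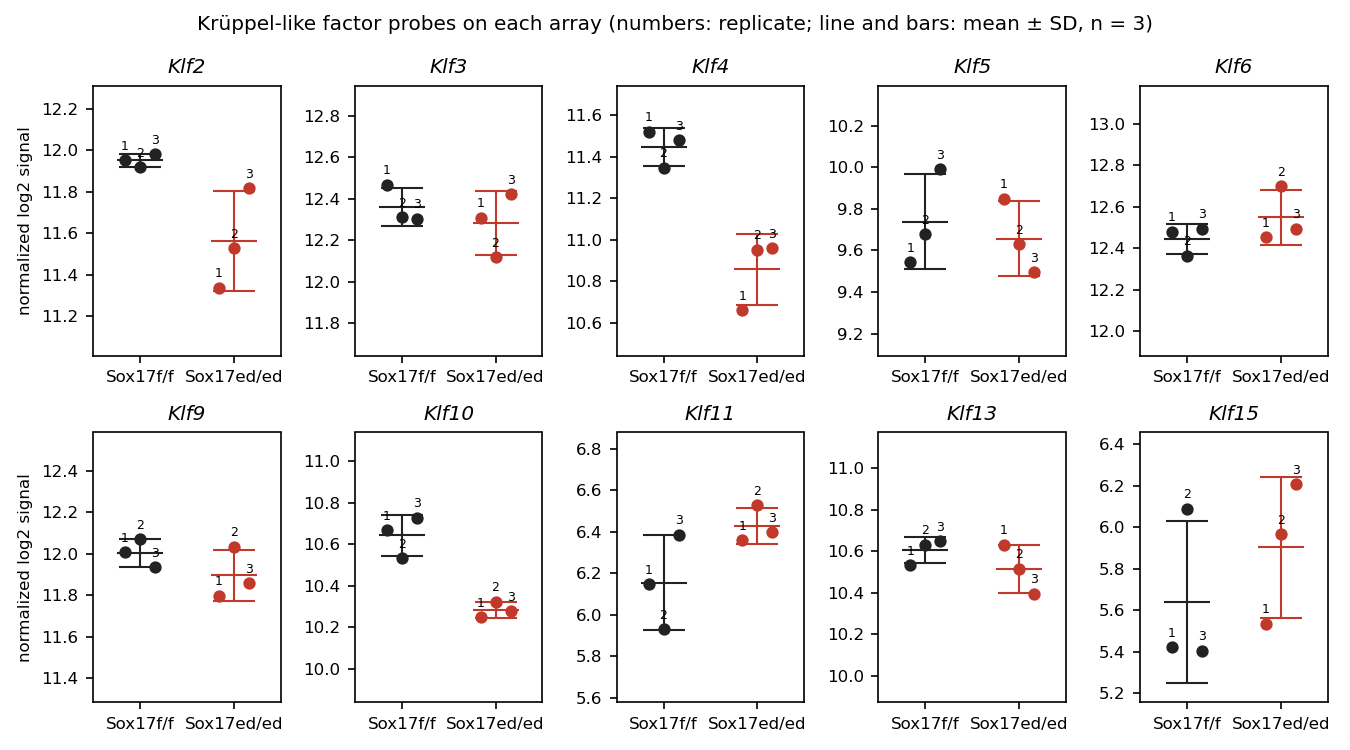
Normalized log2 signal (vertical axis, the same span of 1.3 in each panel) of the 10 Krüppel-like factor probes on the 3 Sox17f/f and 3 Sox17ed/ed arrays. Points are arrays with their replicate numbers, and lines and bars are the mean ± SD (n = 3). The points of the genotypes lie apart for *Klf2*, *Klf4* and *Klf10*, each lower in Sox17ed/ed, and overlap for the other 7.

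Among the members that act mainly as activators, *Klf4*, which drives barrier differentiation and cell cycle arrest in epithelia and is also expressed in endothelium, was the one with the largest difference. *Klf4* read 11.52, 11.35 and 11.48 on the Sox17f/f arrays and 10.66, 10.95 and 10.96 on the Sox17ed/ed arrays. All Sox17ed/ed arrays lay below all Sox17f/f arrays, with Sox17ed/ed replicate 1 the lowest. The means were 11.45 ± 0.091 and 10.86 ± 0.17 (SD, n = 3), and the log2 fold change of -0.59 (SE 0.11, 95% interval -0.85 to -0.34) was 1.51-fold lower, with a limma p of 0.0012 and an adjusted p of 0.0125. An exact permutation test over the arrays gave p = 0.1 (two-sided), the smallest that 3 against 3 arrays allow.

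*Klf2*, which endothelial cells express under flow and which keeps T cells quiescent, read 11.95, 11.92 and 11.98 in Sox17f/f and 11.34, 11.53 and 11.82 in Sox17ed/ed. The Sox17f/f arrays lay close together (SD 0.031), while the Sox17ed/ed arrays were spread (SD 0.24), from well below the controls in replicate 1 to just below them in replicate 3. The log2 fold change was -0.39 (SE 0.13, 95% interval -0.69 to -0.086), which passed neither threshold (limma adjusted p = 0.081). Without Sox17ed/ed replicate 3 *Klf2* was called at a log2 fold change of -0.52 (limma adjusted p = 0.0222). With all 6 arrays the limma adjusted p was also under 0.05 after normexp background correction (-0.46, adjusted p = 0.0154) and with an intensity trend in eBayes (adjusted p = 0.0312), both under the fold threshold.

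*Klf5*, which promotes division and survival of epithelial cells, read 9.54, 9.68 and 9.99 in Sox17f/f and 9.85, 9.63 and 9.49 in Sox17ed/ed. The ranges overlapped almost entirely, and the log2 fold change was -0.080 with a 95% interval of -0.43 to 0.27. *Klf6*, a broadly expressed factor induced by injury, read 12.48, 12.36 and 12.49 in Sox17f/f and 12.45, 12.70 and 12.49 in Sox17ed/ed. Apart from Sox17ed/ed replicate 2 its arrays were alike, and the log2 fold change was 0.10 with an interval of -0.11 to 0.32. The limma adjusted p was 0.745 for *Klf5* and 0.466 for *Klf6*, and both intervals lay within a fold of 1.4 in either direction (0.49 on the log2 scale).

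*Klf10* and *Klf11* are the TGF-beta-inducible members, which repress through the Sin3 corepressor. *Klf10* read 10.67, 10.53 and 10.73 in Sox17f/f and 10.25, 10.32 and 10.28 in Sox17ed/ed. The genotypes lay apart, and the Sox17ed/ed arrays were within 0.076 of each other. The log2 fold change of *Klf10* was -0.36 (SE 0.074, 95% interval -0.54 to -0.18), 1.28-fold lower, with a limma p of 0.0026 and an adjusted p of 0.0215, so that the difference passed the test and stayed under the fold threshold. *Klf11* lay the other way, at 6.15, 5.93 and 6.39 in Sox17f/f and 6.36, 6.53 and 6.40 in Sox17ed/ed. Its ranges overlapped slightly, since Sox17f/f replicate 3 read above Sox17ed/ed replicate 1, and the log2 fold change was 0.27 (95% interval -0.032 to 0.58, limma adjusted p = 0.186).

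*Klf9* and *Klf13* also recruit Sin3 and are the members tied to steroid receptors. *Klf9* read 12.01, 12.07 and 11.94 in Sox17f/f and 11.80, 12.03 and 11.86 in Sox17ed/ed, with a log2 fold change of -0.11 (95% interval -0.31 to 0.099, limma adjusted p = 0.427). *Klf13* read 10.53, 10.63 and 10.65 in Sox17f/f and 10.63, 10.52 and 10.40 in Sox17ed/ed, with a log2 fold change of -0.090 (95% interval -0.29 to 0.11, limma adjusted p = 0.496). Both overlapped between the genotypes, and for both a fold of 1.4 lay outside the interval.

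*Klf3*, a repressor that recruits CtBP, read 12.47, 12.31 and 12.30 in Sox17f/f and 12.31, 12.12 and 12.42 in Sox17ed/ed, with a log2 fold change of -0.077 (95% interval -0.32 to 0.16, limma adjusted p = 0.634). *Klf15*, a metabolic regulator induced by glucocorticoids, read 5.42, 6.09 and 5.40 in Sox17f/f and 5.54, 5.97 and 6.21 in Sox17ed/ed. It was the least precise member, with an SD of 0.39 in Sox17f/f and 0.34 in Sox17ed/ed, and its log2 fold change of 0.26 had an interval of -0.33 to 0.86 (limma adjusted p = 0.500), which leaves room for a fold well past 1.4. In all, the intervals of 5 members (*Klf3*, *Klf5*, *Klf6*, *Klf9* and *Klf13*) lay within a fold of 1.4 and those of the other 5 reached past it.

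**Figure D2:**
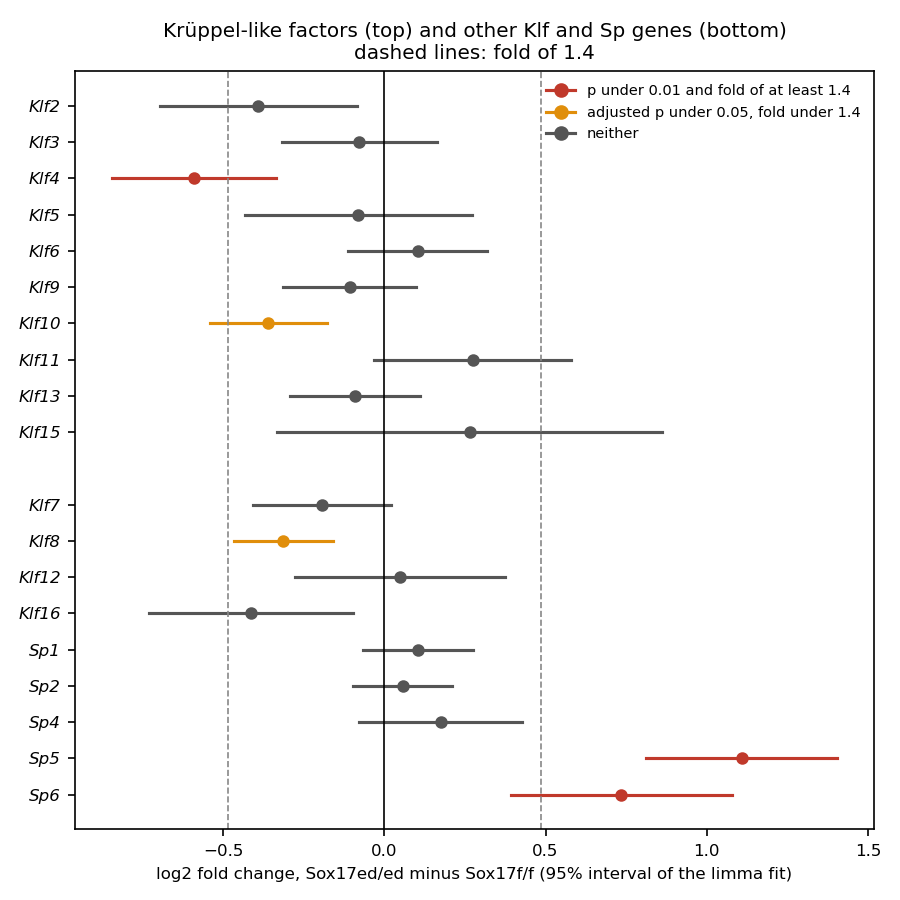
Log2 fold change (horizontal axis, Sox17ed/ed minus Sox17f/f) with its 95% interval for the 10 members (top) and the 9 other *Klf* and *Sp* genes tested (bottom). Dashed lines mark a fold of 1.4 in either direction. *Klf4* is lower and *Sp5* and *Sp6* are higher past both thresholds, while *Klf10* and *Klf8* pass the adjusted p alone.

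Of the 16 remaining genes of the *Klf* and *Sp* families, 9 could be tested and 7 were above background on fewer than 3 arrays. Of these 9, 2 were called, both higher and both *Sp* factors. *Sp5*, a Wnt target that represses through Sp sites, read 7.18, 6.75 and 7.03 in Sox17f/f and 8.03, 8.20 and 8.06 in Sox17ed/ed, a log2 fold change of 1.11 (SE 0.12, limma adjusted p = 0.002). *Sp6*, which acts in skin and tooth epithelium, had a log2 fold change of 0.74 (SE 0.14, limma adjusted p = 0.0164), but was dim, above background on 2 of the 3 Sox17f/f arrays, and the call was lost under other background and variance settings. Of the 4 further Krüppel-like factors tested, 0 were called by limma or by the ordinary linear model. An unadjusted p under 0.05 was found for 2 of the 4, *Klf8* and *Klf16*. At least 19.0% of all genes had such a p, since that share passed an adjusted p under 0.05. The same holds beside each later count at this threshold. *Klf8*, a CtBP-recruiting repressor, stood at -0.31 (SE 0.063, limma adjusted p = 0.0195). *Klf16*, a Sin3-recruiting repressor, stood at -0.41 (SE 0.13, limma adjusted p = 0.0764) and was called without Sox17ed/ed replicate 3, at -0.55. *Klf7* and *Klf12* had log2 fold changes of -0.19 and 0.048. The corepressors, coactivators and E3 ligases that act on the family's proteins showed 0 calls among 15 genes tested, with a median of -0.037, by limma and by the ordinary linear model alike. Of these, 3 had an unadjusted p under 0.05, and at an adjusted p under 0.05 the corepressor subunit *Hdac2* alone was lower (-0.31, SE 0.078, limma adjusted p = 0.0388).

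Of 7 genes tested that have been linked to *Klf2* and *Klf4* in endothelium, 5 were called lower and 1 higher, with a median log2 fold change of -0.79. The lower genes were *S1pr1*, a receptor for sphingosine 1-phosphate (-0.85, SE 0.072), *Vwf*, the clotting factor carrier (-0.84, SE 0.16), *Edn1*, the vasoconstrictor endothelin (-0.81, SE 0.10), *Nos3*, endothelial nitric oxide synthase (-0.79, SE 0.092), and *Thbd*, thrombomodulin (-0.59, SE 0.080). In cultured endothelium *Klf2* and *Klf4* raise *Nos3* and *Thbd* and lower *Edn1*. Whether *Klf2* or *Klf4* bears on the values of these genes here was not tested. *Cldn5*, the endothelial claudin, was higher at 0.52 (SE 0.091), close to the fold threshold, and lost the call in 4 of the alternatives (0.44 to 0.48). Of the general endothelium markers, all 8 had a lower mean in Sox17ed/ed, 0 were called by limma or the ordinary linear model, 6 had an unadjusted and an adjusted p under 0.05 (*Cdh5*, *Pecam1*, *Kdr*, *Tie1*, *Erg* and *Egfl7*), and the median was -0.36. Their mean log2 signal was 10.47 to 10.52 on the Sox17f/f arrays and 10.13 to 10.17 on the Sox17ed/ed arrays. All 8 were above background on all 6 arrays. The smallest differences were those of *Emcn* (-0.082) and of a second *Kdr* probe (-0.045). The part of this shift in the values of *Klf2* (-0.39) and *Klf4* (-0.59) was not tested.

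Immediate early genes, which rise within minutes of a stimulus or of handling of tissue and among which *Klf2*, *Klf4*, *Klf6* and *Klf10* are sometimes counted, had the lowest median of the lists examined. Of 10 tested, 9 were called lower (8 by the ordinary linear model) and 0 higher, with a median log2 fold change of -1.29. *Fosb* stood at -2.79 (SE 0.17), *Nr4a1* at -2.29 (SE 0.17), *Egr2* at -2.19 (SE 0.072) and *Fos* at -2.09 (SE 0.14), while *Jun* stood at 0.083 and was not called. The mean log2 signal of the list was 10.23 to 10.28 on the Sox17f/f arrays and 8.79 to 8.86 on the Sox17ed/ed arrays. *Klf6* stood at 0.10 and was not called, and the part of the shift in *Klf2*, *Klf4* and *Klf10* was not tested.

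**Figure D3:**
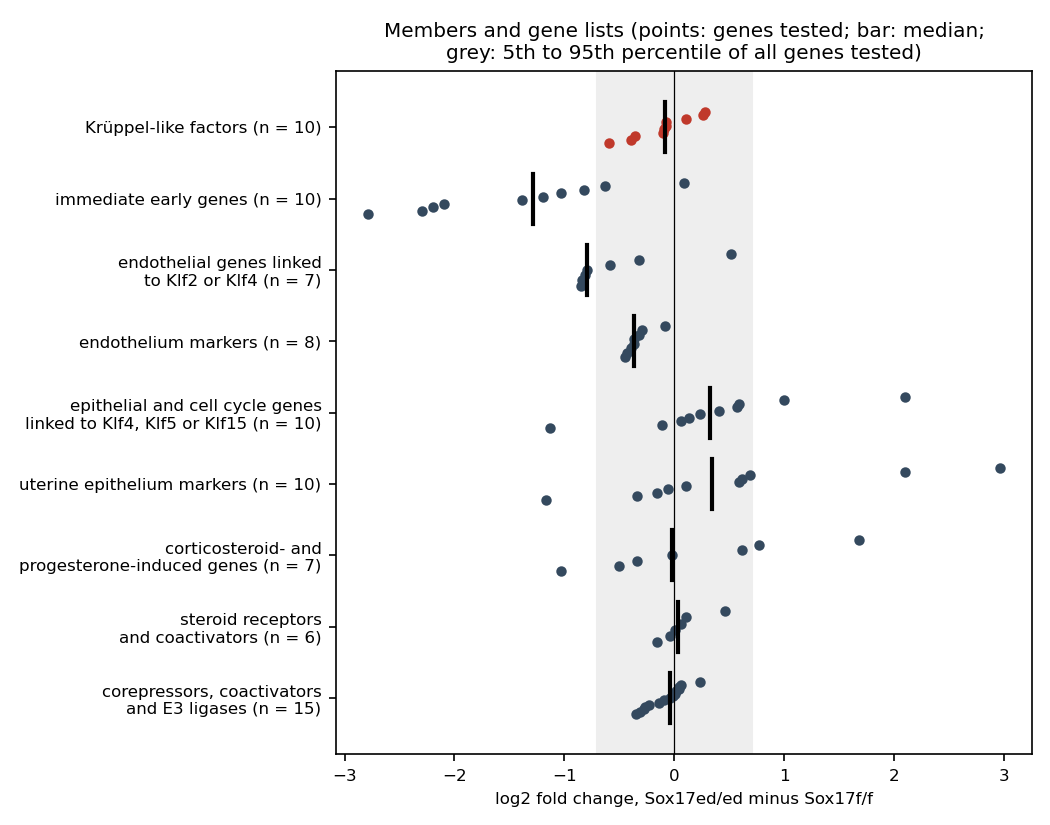
Log2 fold change (horizontal axis, Sox17ed/ed minus Sox17f/f) of each tested gene of the Krüppel-like factors and of 8 gene lists, with the median of each list as a bar and the span from the 5th to the 95th percentile of all 14790 genes in grey. All 10 Krüppel-like factors lie inside the grey span, whereas 8 of the 10 immediate early genes lie to its left.

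Epithelial and cell cycle genes linked to *Klf4*, *Klf5* or *Klf15* went both ways. Of 10 tested, 3 were called higher, *Krt19*, a simple epithelial keratin (2.10, SE 0.13), *Ptgs2*, the inducible prostaglandin synthase (0.998, SE 0.17), and *Cdh1*, E-cadherin (0.59, SE 0.10), and 1 lower, *Tgm1*, a barrier transglutaminase (-1.13, SE 0.072). For *Krt13*, a keratin of stratified epithelium, the probe used stood at 0.058. A second *Krt13* probe, well above background on 0 of 3 Sox17f/f arrays, was at least 3.32-fold higher in Sox17ed/ed. That second probe passed the filter through the Sox17ed/ed arrays alone, so its fold is not given as support. *Ccnd1*, the G1 cyclin, stood at 0.41 (SE 0.071, limma adjusted p = 0.0112), under the fold threshold. *Mcm2*, the replication licensing factor, stood at 0.13 (95% interval -0.15 to 0.41) and *Cdkn1a*, the cell cycle inhibitor p21, at -0.12 (95% interval -0.45 to 0.22). Of 10 uterine epithelium markers 4 were called higher, among them *Krt19* and *Cdh1* again, and 1 lower (*Cldn3*, -1.16). The call of *Krt8* (0.69) was lost in 7 of the alternatives. The mean was higher in Sox17ed/ed for 6 markers and lower for 4, with a median of 0.34. *Epcam* stood at 0.10 and *Krt18* at -0.16, and neither was called. The mean log2 signal of the markers was 10.12 to 10.33 on the Sox17f/f arrays and 10.59 to 10.86 on the Sox17ed/ed arrays. The part of this difference in the values of the genes linked to *Klf4*, *Klf5* or *Klf15* was not tested.

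The steroid receptors and coactivators that work with *Klf9* and *Klf13* showed 0 calls by limma or the ordinary linear model among 6 tested, with a median of 0.032 and 1 unadjusted p under 0.05. *Pgr*, the progesterone receptor, stood at 0.0076 (SE 0.063) and *Esr1*, the oestrogen receptor, at -0.040 (SE 0.070). Other *Esr1* probes stood at -0.014 (SE 0.080) and -0.32 (SE 0.12). The coactivator *Ncoa3* alone passed an adjusted p under 0.05, at 0.46 (SE 0.087, limma adjusted p = 0.0153). Of 7 genes that corticosteroids or progesterone induce, as they do *Klf9* and *Klf15*, 3 were called higher, *Sgk1*, a kinase acting on sodium channels (1.68, SE 0.17), *Fkbp5*, a receptor co-chaperone (0.77, SE 0.12), and *Tsc22d3* (0.62, SE 0.074), and 2 lower, the phosphatase *Dusp1* (-1.03, SE 0.14) and *Errfi1*, an EGF receptor inhibitor (-0.50, SE 0.092). *Klf9* and *Klf15*, at -0.11 and 0.26, passed in neither direction. In the TGF-beta pathway, which induces *Klf10* and *Klf11*, the ligand *Tgfb1* stood at -0.025 and was not called, and the ligand *Tgfb2* (0.32, SE 0.079) and the receptor *Tgfbr2* (-0.38, SE 0.084) passed an adjusted p under 0.05 in opposite directions, both under the fold threshold, while a second *Tgfbr2* probe stood at -0.69 (SE 0.068).

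*Klf4* was called in all 15 further fits, which changed the processing or dropped single arrays, with log2 fold changes from -0.64 to -0.49 and adjusted p from 0.002 to 0.0525. *Klf10* kept its direction throughout, from -0.41 to -0.32, with adjusted p from 0.0075 to 0.0805. Its adjusted p was over 0.05 in 6 of the 15 fits, with the replicate number as a block and without any single array other than Sox17f/f replicate 2, and that of *Klf4* was over 0.05 in 1, without Sox17f/f replicate 1. The sign of *Klf3* and of *Klf5*, whose differences were near 0, turned when single arrays were left out.

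**Figure D4:**
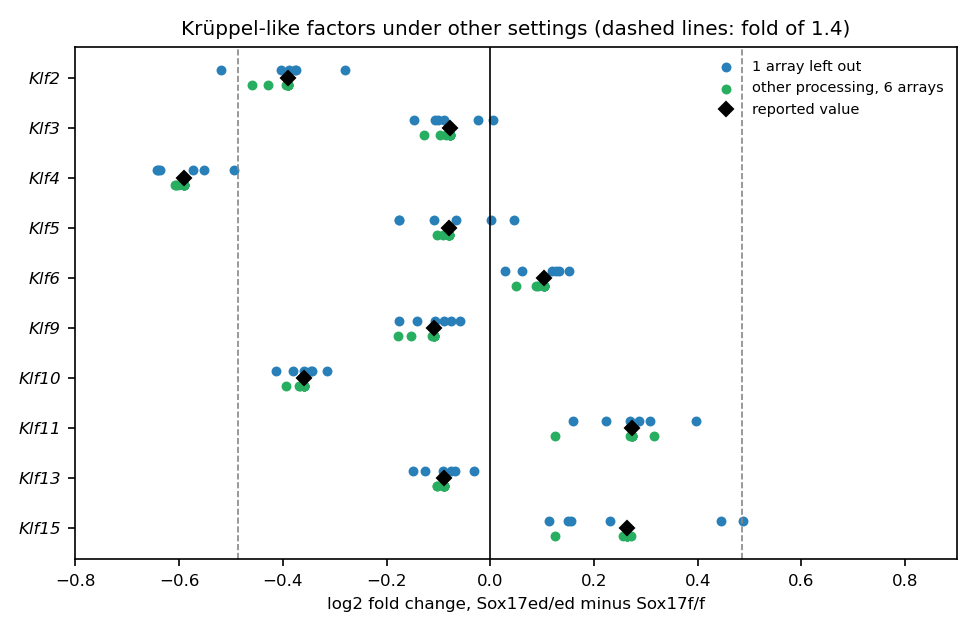
Log2 fold change (horizontal axis, Sox17ed/ed minus Sox17f/f) of the 10 members as reported (diamonds), with 1 array left out (blue points) and under other processing of all 6 arrays (green points). Dashed lines mark a fold of 1.4. *Klf4* stays beyond the line at every point, from -0.64 to -0.49, and the points of *Klf3* and *Klf5* lie on both sides of 0.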

How the data were processed

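Whole uteri of 3 Sox17f/f and 3 Sox17ed/ed mice at GD 3.5 were grouped by genotype as the labels give it. The authors deposited the spot intensity of each array as Feature Extraction wrote it (11.0.1.1 per the file headers, 9.1 per the submitters' processing notes), corrected for background and spatial trends, with no normalization between arrays. The deposited table of processed intensity values lay within 0.191% of the mean over the spots of each probe. The arrays held 62976 spots each, 56.8% to 65.7% of the spots other than controls were well above background, and 0 were saturated. The number of arrays limits the precision.

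From the files, spots marked as outliers (169 to 302 per array) and controls were left out, log2 signals were quantile normalized as in the study's methods, and replicate spots were averaged. A probe was kept if it lay well above background on 3 or more of the 6 arrays and had a value on all 6. The accessions of 26582 of the 55681 probes led to 20145 genes of RefSeq GRCm38.p6, and the probe with the highest mean stood for a gene, which gave 14790 genes. Signals of different probes are not compared. Where 0 arrays of a genotype measured a probe well above background, the fold is a lower bound, set against the lowest signal well above background. Genotypes were compared in R 4.3.3 by lmFit and eBayes of limma 3.58.1. Exact permutation tests used scipy 1.17.1 and plots matplotlib 3.10.9, under Python 3.11.15, and tables were made in pandas 2.3.3 and numpy 2.4.6. On simulated data with 14790 genes, 93 of 100 genes changed by log2 1 and 97 of 100 changed by log2 2 were called, with 59 of 14590 unchanged genes. The p-values measure the spread between these mice only.

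The normexp alternative used the median spot signal. The alternatives are named in the closing section. The members and lists were chosen with earlier results of these data known, and the lists are from general knowledge. All members, *Sox17*, the 2 highest and 2 lowest called genes of each list, *Pgr*, *Esr1*, *Mcm2*, *Cdkn1a* and *Ptgs2* were named by rule, and other genes were named after their values were seen. The counts of the TGF-beta pathway list are not reported here.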

Additional observations from a re-analysis of the deposited data

How the results depend on the processing

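The results were recomputed with a 75th percentile shift, normexp background correction (offset 50), no filter on low signal, a filter asking for signal above background on all 6 arrays, probes averaged per gene, an ordinary linear model, a variance trend in eBayes, a replicate block, the authors' deposited values, other thresholds, and single arrays left out. The number of members called was 1 throughout, apart from 0 at a fold of 2, 2 at an adjusted p under 0.05 and 2 without Sox17ed/ed replicate 3 (range with 1 array left out 1 to 2), where *Klf2* passed at -0.52 (range -0.52 to -0.28). With 1 array left out *Klf3* ranged from -0.15 to 0.0045 (reversed without Sox17ed/ed replicate 2) and *Klf5* from -0.18 to 0.046 (reversed without Sox17f/f replicate 3, and at 0.0010 without Sox17ed/ed replicate 3). The other *Klf* and *Sp* genes called were 1 in place of 2 under the 75th percentile shift, normexp, the filter on all 6 arrays, the trend, the ordinary model and a fold of 2, since *Sp6* was lost or, at a fold of 2, stayed under the threshold (0.56 under the shift, 0.13 under normexp), and 2 to 3 with 1 array left out. Over all genes 814 were called at a fold of 2 and 2805 at an adjusted p under 0.05, against 1850, and 1661 to 2029 with 1 array left out. Among genes with differences near 0, the sign turned for *Pgr* (-0.013 under the shift and -0.013 to -0.016 with 1 array left out, without Sox17f/f replicate 1 or Sox17ed/ed replicate 1; range -0.016 to 0.032), for *Esr1* (range -0.081 to 0.0020), *Cdkn1a* (range -0.21 to 0.0031) and *Klf12* (range -0.047 to 0.16; -0.0074, -0.015 and -0.047). The cause was not tested. Besides *Sp6*, the call was lost, in the same direction, by *Vwf*, *Tgm1* and *Ier2* in 1 alternative each, *Errfi1* and *Junb* in 3, *Cldn5* in 4, *Krt8* in 7 and *Krt5* in 9. These counts cover the alternatives that tested the gene. The filter on all 6 arrays removed *Krt5*, *Tgm1* and *Foxj1*, which were thus not called under it either. No setting moved the median of all genes by over 0.1. The replicate numbers did not pair the samples (correlations of same-numbered arrays 0.062, -0.11 and 0.00033, not each sample best with its own number). With the replicate block 1795 genes were called and 1 member, *Klf4*, while *Klf10* had an adjusted p of 0.0745. Fits to other probes of a member could not be had, since each had 1. Signal over background limits *Sp6*, *Tgm1*, *Krt5*, *Krt13* and *Foxj1*, which were not well above background on every array.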

Other observations

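Of the cell type markers not described so far, 8 endometrial stroma markers showed 0 calls by limma or the ordinary linear model. Their median log2 fold change was 0.10, and 4 had an unadjusted p under 0.05, as had at least 19.0% of all genes. Of 7 smooth muscle markers 1 was called, lower (*Actg2*, enteric smooth muscle actin, -0.64, SE 0.10), with a median of -0.29 and 6 of 7 lower means. The 5 macrophage and leukocyte markers tested showed 0 calls by either fit, and 1 unadjusted p under 0.05, that of *Csf1r*, the macrophage growth factor receptor, at 0.41 (SE 0.077, limma adjusted p = 0.0161), and the 3 neutrophil, 3 erythrocyte, 2 adipocyte and 2 sperm and embryo markers tested also showed 0 calls by either fit, with 0, 1, 1 and 1 unadjusted p under 0.05.

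Of 4 stratified squamous markers tested 1 passed the call rule, the basal keratin *Krt5*, and that call is not used as support. The tested *Krt5* probe, well above background on 0 of 3 Sox17f/f arrays, was at least 5.25-fold higher in Sox17ed/ed. The call was lost in 9 of the alternatives that tested it. A second *Krt5* probe was above background on 1 Sox17f/f array and 0 Sox17ed/ed arrays and was not tested. The 2 probes of *Trp63*, the basal cell factor p63, disagreed. The brighter, which stood for the gene, had a log2 fold change of -0.12 (SE 0.10). The other, well above background on 0 of 3 Sox17f/f arrays, was at least 18.1-fold higher in Sox17ed/ed. This probe and the tested *Krt5* probe passed the filter through the Sox17ed/ed arrays alone. Their p-values, and with them the *Krt5* call, are therefore not given as support. Of 3 ovary and oviduct markers tested, *Foxj1*, the factor of ciliated cells, was higher (2.44, SE 0.35; above background on 1 of 3 Sox17f/f arrays) and *Ovgp1*, oviductin, lower (-2.92, SE 0.22).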
